A study of Homo sapiens with 7 samples.

Results

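The latrophilins, teneurins and FLRT proteins are 3 families of cell-surface adhesion molecules that bind one another across the gap between neighbouring cells. Their genes were taken from the expression table by symbol, as every row named LPHN, TENM or FLRT followed by a single digit. This gave 7 of the 13872 listed genes, namely LPHN1, LPHN2, LPHN3, TENM2, TENM3, FLRT2 and FLRT3. TENM1, TENM4 and FLRT1 were not analysed here. The family was singled out because LPHN3 and TENM2 differ in opposite directions between the sorted clones, so the values of both in that contrast are a description and carry no test.

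UM-UC-3, the human urothelial carcinoma cell line behind all libraries, is an established line. ALDEFLUOR staining, which makes cells with high aldehyde dehydrogenase (ALDH) activity fluoresce, was used to isolate clones that were then cultured. There were 3 ALDH-high clones (H1, H6 and H10), which the submitters treat as cancer stem-like, 3 ALDH-low clones (L1, L3 and L8), which they treat as non-stem-like, and 1 wild-type UM-UC-3 culture. Each clone gave 1 library of total RNA, so n = 3 counts clones of a single line and the wild type has no replicate.

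Latrophilins are adhesion G protein-coupled receptors, first known as receptors for the black widow spider toxin alpha-latrotoxin. Outside the cell they carry a lectin-like domain, which contributes to teneurin binding, and an olfactomedin domain, which binds FLRT proteins. Teneurins are large single-pass proteins that bind latrophilins on the opposite cell. FLRT proteins are leucine-rich repeat proteins that bind both latrophilins and the netrin receptors of the UNC5 family. These contacts are best studied at synapses and in axon guidance, where a latrophilin, a teneurin and an FLRT protein can form one complex.

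Values are in CPM (counts scaled by library size) as deposited, in which 1 read corresponds to about 0.04 CPM, and the recovered reads over the listed genes summed to between 24177114 and 25664901 per library. Where no read was found, the level may still reach 0.118 to 0.123 CPM (3 reads). This floor, like the exact Poisson 95% intervals below, covers counting error only. Differences are ALDH-high minus ALDH-low means of log2(CPM + 1), which understates the change of low genes. Levels are compared between libraries for each gene and not between genes, since no scaling by length was applied. Of the urothelial markers, 5 of 19 were listed, with KRT8 and KRT18 the most abundant, while uroplakins, GATA3, TP63 and CDH1 were not among the listed genes. The summed urothelial markers were at 500 to 740 CPM in ALDH-high clones, 243 to 520 CPM in ALDH-low clones and 755 CPM in wild type, nearly all of it KRT8 and KRT18. The sparser KRT7 was at 1.99 ± 0.731 CPM in ALDH-high and 5.30 ± 1.83 CPM in ALDH-low clones, and PPARG at 0.870 ± 0.417 CPM in ALDH-high and 3.78 ± 3.89 CPM in ALDH-low clones (SD, n = 3 each). The median difference of the 4 tested urothelial markers was -0.12, against 0.00 for all tested genes.

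The start regions of LPHN3 and TENM2 are shown because these genes were each at or near 0 reads in 1 group of clones, and their 5′ ends differ in base composition. RefSeq lists 2 start windows for each gene, of 300 bases, running from 250 bases before to 50 bases after an annotated start (build GRCh38.p14, plus strand). Those of LPHN3 lie at chr4:61200076-61200375 and chr4:61201922-61202221, and those of TENM2 at chr5:167072992-167073291 and chr5:167754679-167754978. Capitals mark each CG dinucleotide.
LPHN3 start 1: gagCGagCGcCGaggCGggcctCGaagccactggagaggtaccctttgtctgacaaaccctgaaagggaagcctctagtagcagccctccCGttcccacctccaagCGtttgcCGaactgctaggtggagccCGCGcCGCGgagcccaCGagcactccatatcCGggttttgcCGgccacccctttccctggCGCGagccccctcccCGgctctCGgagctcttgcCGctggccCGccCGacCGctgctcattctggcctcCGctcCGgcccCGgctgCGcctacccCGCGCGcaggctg
LPHN3 start 2: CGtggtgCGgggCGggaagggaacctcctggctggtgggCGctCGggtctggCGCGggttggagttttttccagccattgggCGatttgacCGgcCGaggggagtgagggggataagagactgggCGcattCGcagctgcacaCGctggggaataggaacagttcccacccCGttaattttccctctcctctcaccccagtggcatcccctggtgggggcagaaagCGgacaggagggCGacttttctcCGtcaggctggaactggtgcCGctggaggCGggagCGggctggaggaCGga
TENM2 start 1: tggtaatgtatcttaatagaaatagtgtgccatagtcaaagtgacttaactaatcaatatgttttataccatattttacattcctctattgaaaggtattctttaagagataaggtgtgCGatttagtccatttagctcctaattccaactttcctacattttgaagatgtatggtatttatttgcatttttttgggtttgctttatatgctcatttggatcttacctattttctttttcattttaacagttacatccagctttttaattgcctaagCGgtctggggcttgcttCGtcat
TENM2 start 2: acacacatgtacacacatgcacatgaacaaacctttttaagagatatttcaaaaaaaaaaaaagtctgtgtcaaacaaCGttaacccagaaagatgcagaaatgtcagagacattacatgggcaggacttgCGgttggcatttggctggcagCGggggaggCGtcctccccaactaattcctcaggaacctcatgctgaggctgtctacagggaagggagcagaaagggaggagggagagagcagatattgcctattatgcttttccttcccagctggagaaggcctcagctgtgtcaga

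The LPHN3 windows held 30 and 21 CG dinucleotides, and the TENM2 windows held 3 and 4. The median over all 35116 RefSeq start windows was 14. Counts as low as those of TENM2 or lower were found in 24.5% and 29.6% of all windows, and 79.3% and 62.3% of windows had no more CG than the LPHN3 windows. The motif TATAAA, searched on both strands, occurred in TENM2 start 1 only among these 4 windows, and in 11.5% of all windows. It shares no base with a CG dinucleotide. Which start is used in UM-UC-3 cells is not known from the deposited values. Of the 7 genes 6 matched RefSeq windows, and LPHN1 had none.

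LPHN3 (ENSG00000150471, chromosome 4, ADGRL3 in current naming), a latrophilin, was present in all ALDH-high clones and nearly absent from ALDH-low clones. Its levels were 20.07, 9.52 and 12.52 CPM in ALDH-high clones H1, H6 and H10, against 0.28, 0 and 0 CPM in ALDH-low clones L1, L3 and L8. The groups do not overlap, and all 7 reads in the ALDH-low group came from L1. The means were 14.0 ± 5.44 CPM in ALDH-high and 0.0933 ± 0.162 CPM in ALDH-low clones (SD, n = 3 each), a difference of 3.73 on the log2 scale. In reads this was 1050 against 7, a ratio of 152 (counting interval 73.5 to 379). In bulk RNA a lower level cannot tell fewer expressing cells from less RNA per cell.

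Wild type had 11.79 CPM of LPHN3, inside the range of the ALDH-high clones. In order of level, H1 was followed by H10, wild type and H6. H10 was at 1.06 times wild type (counting interval of the ratio 0.903 to 1.25), so these neighbours were not separated beyond counting error. H6 was at 0.808 times wild type (interval 0.677 to 0.963) and thus below it by more than counting error, and H1 was at 1.60 times H10 (interval 1.39 to 1.85). Wild type held 295 reads, which is 0.837 times the ALDH-high level (interval 0.733 to 0.953) and 127 times the ALDH-low level (interval 60.9 to 319).

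TENM2 (ENSG00000145934, chromosome 5), a teneurin and thus a ligand of latrophilins, showed the opposite arrangement. It had 0 CPM in each of the ALDH-high clones H1, H6 and H10, against 7.88, 8.41 and 2 CPM in ALDH-low clones L1, L3 and L8. The groups do not overlap, although L8 was well below L1 and L3. The mean was 6.10 ± 3.56 CPM in ALDH-low clones (SD, n = 3), and the difference was -2.66 on the log2 scale. With 0 reads against 461, TENM2 was at least 152-fold lower in ALDH-high clones, taking 3 reads in the whole group as the floor.

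Unlike the ALDH-high clones, wild type had reads of TENM2. Its level was 1.24 CPM (31 reads, interval 0.842 to 1.76 CPM), next in order to L8, which was at 1.61 times wild type with a counting interval of the ratio (1.01 to 2.61) that barely leaves out equality. The wild-type level was at least 30.8-fold above that of the ALDH-high clones, against the same floor, and 0.203 times that of the ALDH-low clones (interval 0.136 to 0.292). L3 was at 1.07 times L1 (interval 0.875 to 1.30), which does not separate them beyond counting error. Wild type was therefore the only library besides L1 with reads of both LPHN3 and TENM2.

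The filter on low values required 1 CPM or more in 3 or more of the 6 clones, and both genes passed it through 1 group alone. Among all 12705 tested genes, limma called 1.34%, and the groups did not overlap in 26.1%. Since LPHN3 and TENM2 were chosen on this contrast, nothing is read from these shares for them.

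**Figure D1:**
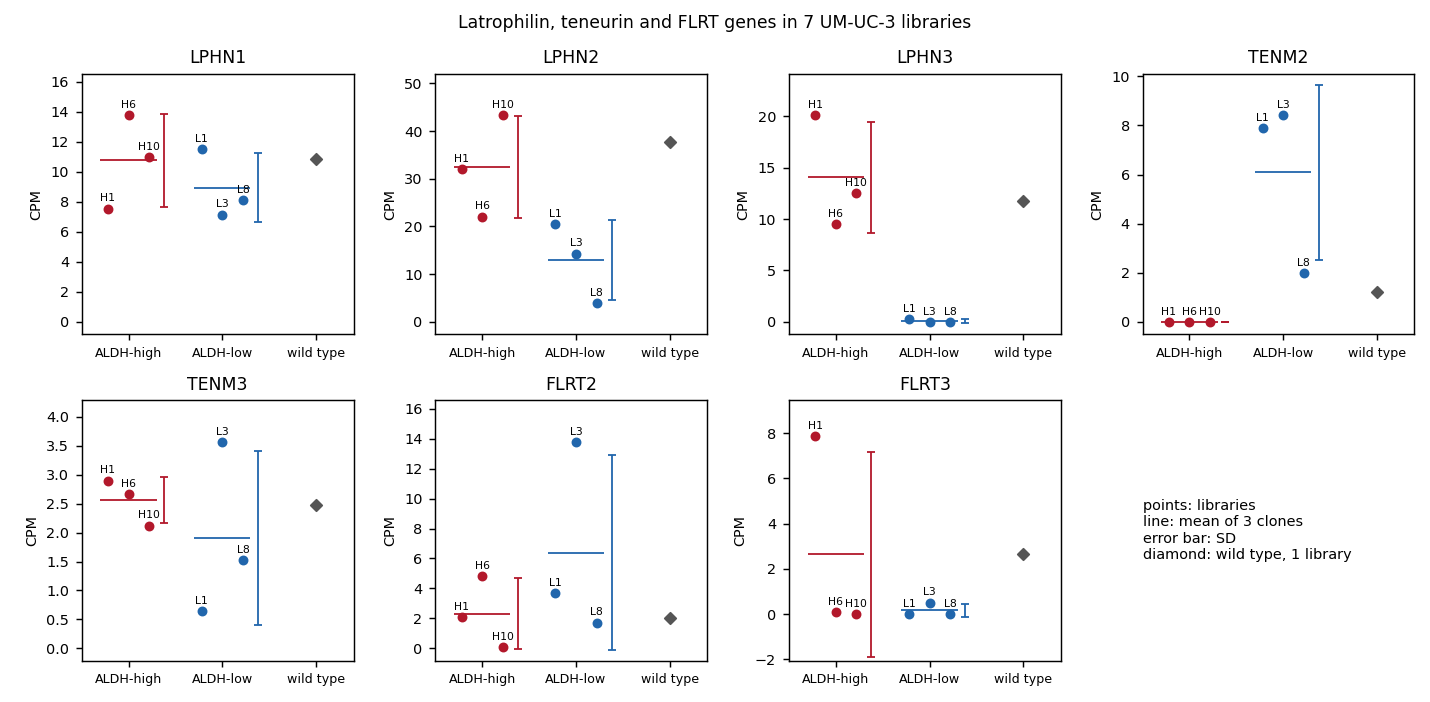
CPM of each family member (y axis, linear) in ALDH-high clones, ALDH-low clones and wild type; points are libraries, horizontal lines the mean of 3 clones, error bars the SD and the diamond the single wild-type library. LPHN3 lies between 9.52 and 20.07 CPM in ALDH-high clones and at or below 0.28 CPM in ALDH-low clones, while TENM2 is at 0 CPM in ALDH-high clones and FLRT3 exceeds 1 CPM only in H1 and wild type.

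The other 5 members were taken by symbol, though the family was chosen with earlier results of these data known. Limma results are given for the 4 of them that passed the filter, with Benjamini-Hochberg adjustment over all 12705 tested genes. Limma called 0 of the 4, against 1.34% of all tested genes, and 1 of them had an unadjusted p under 0.05, as did 19.7% of all tested genes. On the recovered reads the 4 genes gave 0 calls with edgeR (0.913% of all genes) and 0 with DESeq2 (7.92% of all genes). The median difference of the 4 was 0.32, against 0.00 for all tested genes.

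LPHN2 (ENSG00000117114, chromosome 1), a latrophilin expressed in many tissues outside the brain, ran in the same direction as LPHN3 without passing the test. It was at 32.07, 22.08 and 43.28 CPM in H1, H6 and H10, against 20.48, 14.34 and 3.96 CPM in L1, L3 and L8. The groups do not overlap, but the lowest ALDH-high clone and the highest ALDH-low clone are adjacent, H6 being at 1.08 times L1 (counting interval 0.953 to 1.22). Groups that do not overlap with ALDH-high above were found in 14% of all tested genes. The difference was 1.46 on the log2 scale (SE 0.513, limma adjusted p = 0.177), with means of 32.5 ± 10.6 CPM in ALDH-high and 12.9 ± 8.35 CPM in ALDH-low clones (SD, n = 3 each). L8 weighs most on it, since without L8 the difference was 0.83 (limma adjusted p = 0.281; range over the alternatives 0.094 to 0.371). Wild type had 37.77 CPM, within the ALDH-high range.

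LPHN1 (ENSG00000072071, chromosome 19), the latrophilin first purified as a latrotoxin receptor, overlapped between the groups. It had 7.55, 13.75 and 10.96 CPM in H1, H6 and H10, against 11.52, 7.15 and 8.12 CPM in L1, L3 and L8, and 10.87 CPM in wild type. The difference was 0.23 on the log2 scale (SE 0.267, limma adjusted p = 0.671). All 3 latrophilins were therefore detected in ALDH-high clones and wild type, while in L3 and L8 reads came from LPHN1 and LPHN2 alone. A gene on the opposite strand, CTB-55O6.12, overlaps LPHN1 in GENCODE 29 and had 4.97 to 8.25 CPM in ALDH-high and 5.77 to 10.48 CPM in ALDH-low clones. No source used here says whether counting kept the strands apart.

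TENM3 (ENSG00000218336, chromosome 4), a teneurin known for matching connections in the visual system and hippocampus of mice, had reads in every library. It was at 2.90, 2.67 and 2.12 CPM in H1, H6 and H10, against 0.64, 3.57 and 1.52 CPM in L1, L3 and L8, and 2.48 CPM in wild type. The ALDH-low clones spanned both the lowest and the highest value of the 7 libraries. The difference was 0.41 (SE 0.364, limma adjusted p = 0.572), and it was 0.06 without L1 and 0.80 without L3 (limma adjusted p = 0.947 and 0.188, the highest and lowest over the alternatives). RP11-402C9.1, which overlaps TENM3 on the same strand, was at 0.82 to 1.23 CPM in ALDH-high clones, 0.40 to 0.84 CPM in ALDH-low clones and 1.52 CPM in wild type. Its part in the TENM3 values was not tested. TENM3 was thus the only listed teneurin with reads in the ALDH-high clones.

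FLRT2 (ENSG00000185070, chromosome 14), a ligand of latrophilins and of UNC5 receptors, varied between clones of the same group. It was at 2.07, 4.80 and 0.08 CPM in H1, H6 and H10, against 3.68, 13.79 and 1.72 CPM in L1, L3 and L8, and 2.04 CPM in wild type. L3 was the highest and H10 the lowest library. The difference of -1.10 (SE 0.736, limma adjusted p = 0.453) was -0.44 without H10 and -0.41 without L3 (limma adjusted p = 0.792 and 0.779; range over the alternatives 0.322 to 0.792).

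FLRT3 (ENSG00000125848, chromosome 20), the other listed FLRT gene, did not pass the filter and was not tested. It had 7.87, 0.08 and 0 CPM in H1, H6 and H10, against 0, 0.51 and 0 CPM in L1, L3 and L8, and 2.68 CPM in wild type. H1 held 198 of the 200 reads in ALDH-high clones and L3 all 13 reads in ALDH-low clones, so neither group mean describes its clones. MACROD2, which overlaps FLRT3 on the opposite strand, was at 4.88 to 6.16 CPM in ALDH-high clones, 2.64 to 5.58 CPM in ALDH-low clones and 9.07 CPM in wild type.

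Library by library, L3 had TENM2 and the highest levels of TENM3 and FLRT2 but 0 reads of LPHN3. H1 had the highest LPHN3 and FLRT3 levels and 0 reads of TENM2. H10 combined the highest LPHN2 level with the lowest FLRT2 level and 0 reads of FLRT3. In every one of the 7 libraries at least 1 latrophilin, 1 teneurin and 1 FLRT gene had reads.

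The nearest listed genes on each side of LPHN3 and TENM2, by gene order in GENCODE 29, were set beside them. The genes before LPHN3 lie 4170 kb (POLR2B) and 4222 kb (NOA1) away and those before TENM2 lie 3765 kb (MAT2B) and 3792 kb (HMMR) away, whereas the first genes after LPHN3 and TENM2 lie 27 kb away each (GRCh38). Of the 8 neighbours, limma called 0 (adjusted p from 0.417 to 0.987), 0 had an unadjusted p under 0.05 (19.7% of all tested genes), and edgeR and DESeq2 also called 0. POLR2B, which encodes an RNA polymerase II subunit and precedes LPHN3, was at 25.55, 27.42 and 30.84 CPM in H1, H6 and H10, against 28.20, 25.69 and 27.32 CPM in L1, L3 and L8. NOA1, a mitochondrial GTPase gene, was the only 1 of the 8 whose groups do not overlap, against 26.1% of all tested genes. It was at 3.80 ± 0.302 CPM in ALDH-high and 2.87 ± 0.269 CPM in ALDH-low clones (SD, n = 3 each; limma adjusted p = 0.42). RP11-84A1.1, which follows LPHN3, was at 0.04, 1.19 and 3 CPM in ALDH-high clones, against 2.88, 1.61 and 2.24 CPM in ALDH-low clones. This gene was therefore low in H1, where LPHN3 was highest. RP11-63H19.2, 2529 kb after LPHN3, was at 4.33, 17.2 and 16.76 CPM in ALDH-high clones, against 16.68, 13.55 and 20.12 CPM in ALDH-low clones. RARS, 222 kb after TENM2, was at 85.96 to 87.99 CPM in ALDH-high and 58.52 to 85.96 CPM in ALDH-low clones. The groups of RARS met at 85.96 CPM, in H10 and L8. WWC1, a Hippo pathway gene that follows TENM2, was at 16.05, 84.63 and 66.72 CPM in ALDH-high clones, against 67.72, 30.84 and 46.24 CPM in ALDH-low clones, with overlap of the groups. MAT2B, which precedes TENM2 and encodes a regulatory subunit of methionine adenosyltransferase, was at 124 to 192 CPM in ALDH-high and 124 to 137 CPM in ALDH-low clones.

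**Figure D2:**
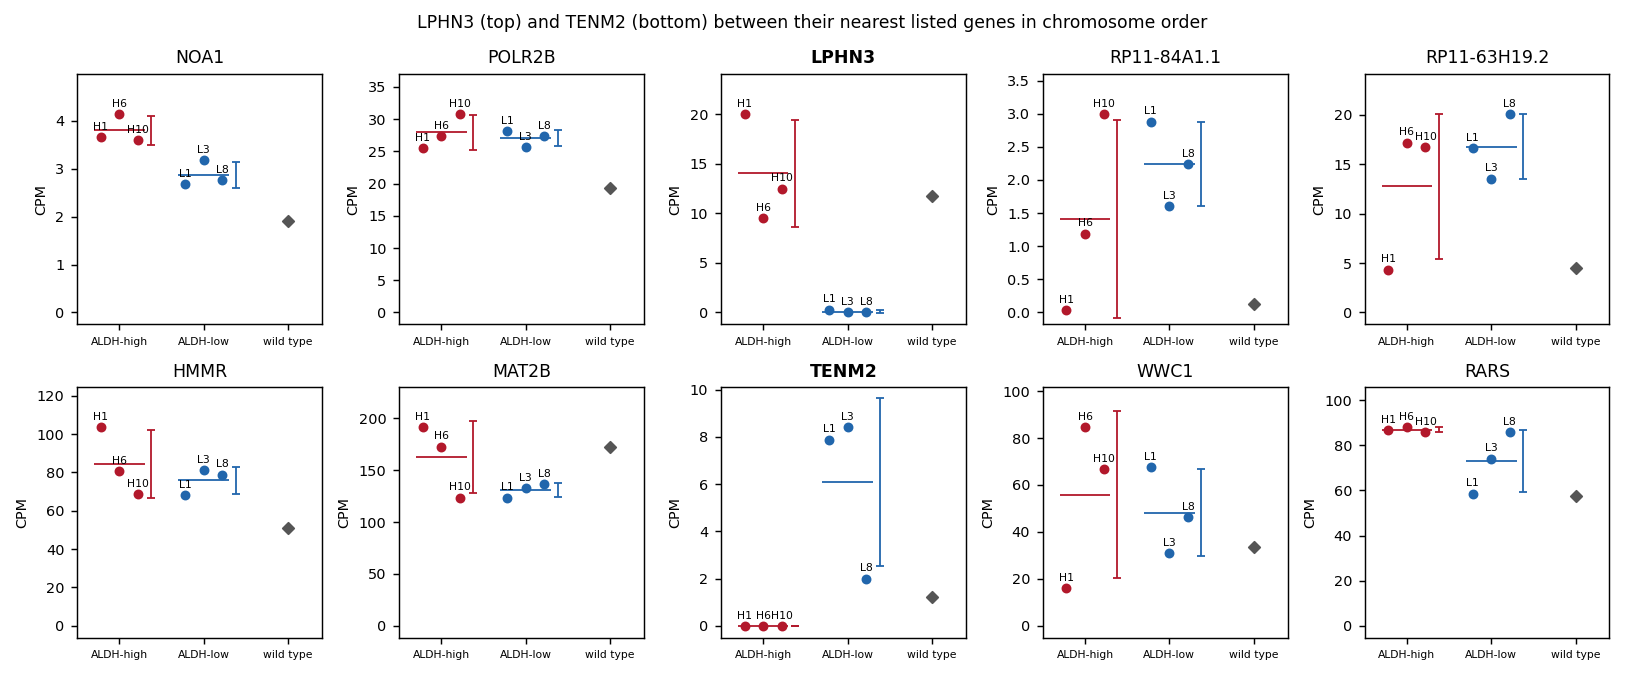
CPM (y axis, linear) of LPHN3 (top row) and TENM2 (bottom row) with the nearest 2 listed genes on each side in chromosome order; points are libraries, lines the mean of 3 clones, error bars the SD and diamonds wild type. LPHN3 is at or below 0.28 CPM in ALDH-low clones and TENM2 at 0 CPM in ALDH-high clones, whereas each of the 8 neighbours has a mean of at least 1.41 CPM in both groups.

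The genes whose pattern was most like that of LPHN3 were found by Pearson's r of log2(CPM + 1) over the 7 libraries, among 12834 genes with at least 1 CPM in 3 of them. They were ALDH1A1 (r = 0.997), RP11-151D14.1 (0.996), EPHA7 (0.995), HAPLN1 (0.992) and ZNF717 (0.992). ALDH1A1, the retinaldehyde-oxidising enzyme, was at 96.32, 33.37 and 42.20 CPM in H1, H6 and H10, against 0, 0.08 and 0 CPM in L1, L3 and L8, and 37.85 CPM in wild type. Like LPHN3 it was highest in H1, and its wild-type value lay between H6 and H10. These r values rest mainly on the split between ALDH-low clones and the other libraries, and the libraries share a cell line.

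The genes most like TENM2 were KYNU (r = 0.983), TALDO1 (0.979), IQGAP1 (0.977), ACOT9 (0.976) and BNIP2 (0.973). These r values rest on 7 libraries of a single cell line, with TENM2 at 0 CPM in every ALDH-high clone. Shared regulation was not tested. KYNU, which encodes the tryptophan-catabolising enzyme kynureninase, was at 0.16, 0 and 0.08 CPM in H1, H6 and H10, against 19.08, 30.48 and 2.76 CPM in L1, L3 and L8, and 4.56 CPM in wild type. As with TENM2, L8 was the lowest ALDH-low clone. IQGAP1, a cytoskeletal scaffold gene, differed far less in proportion, with 52.33 to 61.95 CPM in ALDH-high clones, 75.20 to 130.8 CPM in ALDH-low clones and 75.02 CPM in wild type.

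Other adhesion G protein-coupled receptors, the receptor class of the latrophilins, were mostly not called. Of 29 on the list 10 were listed and tested, of which limma called 0 higher, 1 lower and 9 neither way. Over all tested genes, 0.693% were called lower. The median difference was -0.15, against 0.00 for all tested genes. GPR56 (ADGRG1), a receptor for collagen III in mouse brain, was the gene that fell. It was at 3.70, 5.09 and 5.16 CPM in H1, H6 and H10, against 13.92, 22.39 and 25.76 CPM in L1, L3 and L8, and 13.27 CPM in wild type. The groups do not overlap, and wild type lies just under L1. The means were 4.65 ± 0.824 CPM in ALDH-high and 20.7 ± 6.10 CPM in ALDH-low clones (SD, n = 3 each), a change of -1.91 on the log2 scale (SE 0.262, limma adjusted p = 0.0215). The call was lost without H6, H10 or L8 (limma adjusted p = 0.0524, 0.0816 and 0.0971; range over the alternatives 7.95e-10 to 0.0971).

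CD97, the leukocyte-associated receptor also known as ADGRE5, was at 5.44 ± 0.601 CPM in ALDH-high and 9.99 ± 2.91 CPM in ALDH-low clones (SD, n = 3 each; limma adjusted p = 0.168). CELSR1, a planar cell polarity cadherin, was at 1.99 ± 0.513 CPM in ALDH-high and 3.997 ± 1.15 CPM in ALDH-low clones (limma adjusted p = 0.175). Neither passed the test, though their groups do not overlap. Groups with ALDH-high below ALDH-low and no overlap made up 12.1% of all tested genes, and 4 of the 10 tested receptors.

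Further known partners of the 3 families were also compared. Of 16 on the list, 9 were in the table and 6 were tested. Limma called 0 (1.34% of all tested genes), 3 had an unadjusted p under 0.05 (19.7%), edgeR called 0 (0.913%) and DESeq2 called 2 (7.92%). SHANK1, a postsynaptic scaffold whose family binds the tail of latrophilins, was at 9.15 ± 2.41 CPM in ALDH-high and 16.6 ± 2.72 CPM in ALDH-low clones (limma adjusted p = 0.122; DESeq2 adjusted p = 0.0345; range over the alternatives 0.0345 to 0.28). RND1, a small GTPase linked to FLRT3 in frog embryos, was at 1.35, 20.07 and 3.60 CPM in H1, H6 and H10, against 0.52, 1.06 and 0.60 CPM in L1, L3 and L8 (limma adjusted p = 0.2; DESeq2 adjusted p = 0.000799; range over the alternatives 0.000799 to 0.395). H6 alone accounts for most of the ALDH-high level of RND1. ROBO1, an axon guidance receptor that FLRT3 binds in mice, was at 6.98 ± 1.48 CPM in ALDH-high and 4.13 ± 0.372 CPM in ALDH-low clones (limma adjusted p = 0.17). The UNC5 receptors UNC5A and UNC5B were in the table but below the filter, at no more than 0.25 and 2.26 CPM in any clone.

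Of 10 G protein genes, through which adhesion receptors signal, all were in the table and 9 were tested. Limma called 0 (1.34% of all tested genes), 4 had an unadjusted p under 0.05 (19.7%), edgeR called 0 (0.913%) and DESeq2 called 1 (7.92%). The median difference was -0.49, against 0.00 for all tested genes. GNAI1, an inhibitory alpha subunit, was at 21.78, 13.83 and 14.76 CPM in H1, H6 and H10, against 4.36, 11.90 and 1.64 CPM in L1, L3 and L8 (difference 1.62, limma adjusted p = 0.148), and it was called without L3 (limma adjusted p = 0.0434; range over the alternatives 0.0434 to 0.317). GNA12, another alpha subunit, was at 5.21, 23.27 and 21.00 CPM in ALDH-high clones, against 60.24, 27.50 and 58.72 CPM in ALDH-low clones (difference -1.66, limma adjusted p = 0.151; DESeq2 adjusted p = 0.0248; range over the alternatives 0.0248 to 0.351). Wild type, at 5.88 CPM of GNA12, was close to H1 and far from the other clones. GNAS, the stimulatory alpha subunit, was at 306 ± 57.3 CPM in ALDH-high and 406 ± 26.7 CPM in ALDH-low clones (limma adjusted p = 0.224).

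Of 36 other genes for adhesion across synapses, 15 were in the table and 11 were tested, of which limma called 0 higher, 1 lower and 10 neither way. Over all tested genes, 0.645% were called higher and 0.693% lower. The median difference was -0.01, against 0.00 for all tested genes. The called gene was PTPRD, a receptor phosphatase of presynaptic membranes. It passed the filter through the ALDH-low clones alone, so its values are given as a description. PTPRD had 0, 0.08 and 0.08 CPM in H1, H6 and H10, against 10.80, 9.62 and 13.88 CPM in L1, L3 and L8, and 0.72 CPM in wild type. Among the clones it was thus near 0 in the same libraries as TENM2, and wild type had a low level of both. SLITRK5, a leucine-rich repeat adhesion protein of synapses, was at 6.08, 1.40 and 3.92 CPM in ALDH-high clones, against 0.60, 1.14 and 0.84 CPM in ALDH-low clones (limma adjusted p = 0.142; DESeq2 adjusted p = 0.0131; range over the alternatives 0.0131 to 0.32). SLITRK4 was at 3.02 ± 1.38 CPM in ALDH-high and 0.48 ± 0.797 CPM in ALDH-low clones (limma adjusted p = 0.103).

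**Figure D3:**
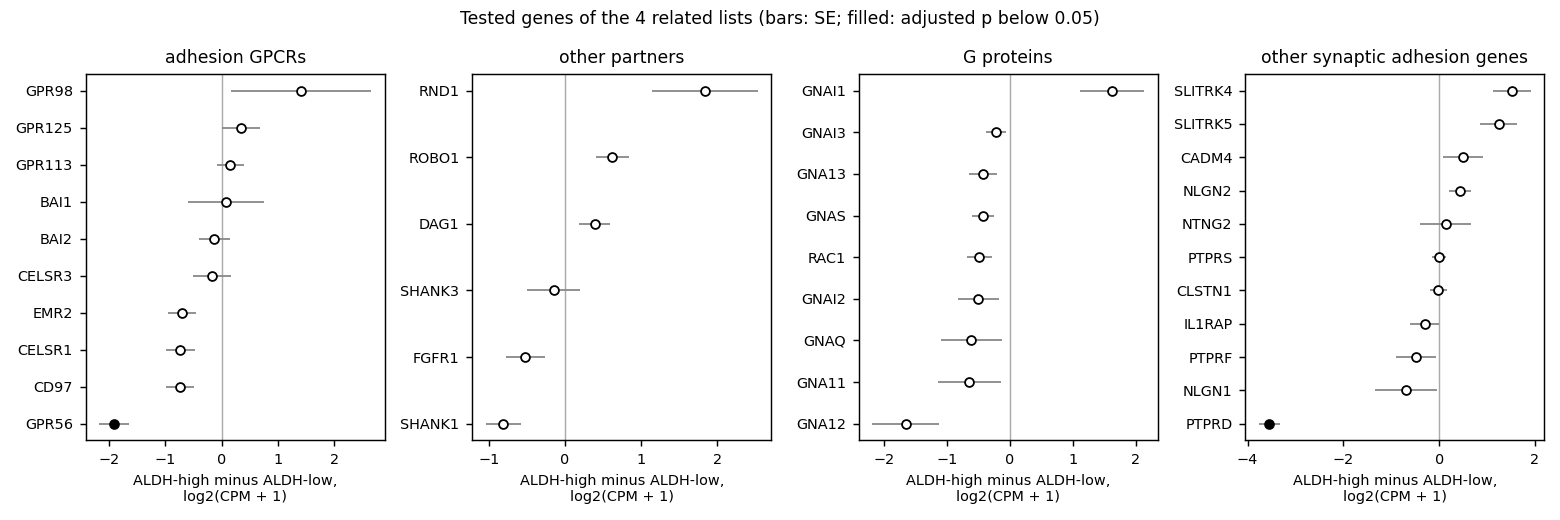
Difference in mean log2(CPM + 1), ALDH-high minus ALDH-low (x axis), for each tested gene of the related lists (y axis); bars are the SE from limma and filled points have an adjusted p below 0.05. GPR56 (-1.91) and PTPRD (-3.55, a gene that passed the filter through the ALDH-low clones alone) are the filled points, and GNA12 (-1.66) and GNAI1 (1.62) lie at opposite ends of the G protein panel.

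Because these families are best known from neurons, neuronal markers were summed as well. Of 10 on the list 3 were in the table, and their sum was 53.4 to 73.0 CPM in ALDH-high clones, 28.3 to 46.2 CPM in ALDH-low clones and 51.7 CPM in wild type. TUBB3, a tubulin gene also active in many tumour lines, made up most of it. SNAP25, a vesicle fusion protein, was at 18.56, 13.09 and 9.68 CPM in H1, H6 and H10, against 2.96, 2.95 and 11.08 CPM in L1, L3 and L8 (limma adjusted p = 0.17). The part of these markers in the LPHN3 and TENM2 values was not tested. Of 8 fibroblast markers only THY1 was in the table, and 0 of 8 leukocyte and endothelial markers were. THY1 was at 0, 11.37 and 0 CPM in H1, H6 and H10, against 17.2, 20.11 and 29 CPM in L1, L3 and L8. Its groups do not overlap, as in 12.1% of all tested genes with ALDH-high below, and it was not called (limma adjusted p = 0.108).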

How the data were processed

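Total RNA of 7 UM-UC-3 cultures was sequenced. The authors deposited 1 table of 13872 genes, named as CPM (counts scaled to a library size) and rounded to 2 decimals. Its column headers carry the name of CAGEr, a package for 5′-end tags. The submitters' processing notes name BWA 0.5.9, hg19 and mm9 without roles; counting, strand and the library type are not given in the sources used here. No listed gene stays below 0.52 CPM in every library. Values were whole multiples of 1 step per column for 100% of values within 0.0051 CPM; within 0.1 read, 78.7 to 99.8% were whole, since rounding is coarse for some steps. Reads may count more than once, as 1017 genes share all values with another, though none of the 7 members does.

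A gene was tested if 3 or more of the 6 clones reached 1 CPM. Limma 3.58.1 (R 4.3.3) was run on log2(CPM + 1) (trended eBayes, two-sided, Benjamini-Hochberg, threshold 0.05); a gene below it is said to be called, to rise or to fall. On the recovered reads, edgeR 4.0.16 called 116 genes (0.913%) and DESeq2 1.42.0 called 1004 of 12684 (7.92%), against 170 with limma. Library sizes implied by the steps set the edgeR offsets, although the reads over the listed genes exceed these sizes in H1 and wild type. The fit was also run on simulated counts with known changes, as a check of the code. The simulated spread had the same setting for every gene, unlike that of the clones, so nothing is read from it for these data. P-values measure the spread between clones, which came from 1 line. Text names all members, called list genes, the 3 list genes with the smallest p, 5 genes most like LPHN3 and TENM2, and 2 neighbours per side (GENCODE 29, GRCh38; 96.6% of identifiers matched; order and distance only). The members and lists were chosen with earlier results of these data known. 1 gene of the G protein list is not reported here.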

Additional observations from a re-analysis of the deposited data

How the results depend on the processing

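The groups of LPHN3 and of TENM2 do not overlap. The sign of their differences (3.73 and -2.66) was therefore given in advance, and nothing is read from its being the same under the alternatives. The size of these differences depended on how values near 0 were treated. With a pseudocount of 0.1 they were 6.43 and -5.71, with a pseudocount of 5 they were 1.86 and -1.09, with edgeR 7.14 and -10.28, and with DESeq2 7.19 and -9.71. Leaving out 1 clone gave 3.46 to 3.96 and -3.19 to -2.37. A filter at 5 CPM left out TENM2, TENM3 and FLRT2. The count of other family members called was 0 under all alternatives. The count of adhesion receptors called, 1 in the full fit, ranged from 0 (without H6, H10 or L8) to 2 (without L3) when clones were left out. The second was GPR98, called higher in ALDH-high clones and named after its values were seen. It was at 8.42, 12.81 and 4.16 CPM in H1, H6 and H10, against 0.04, 33.55 and 0 CPM in L1, L3 and L8. Leaving out L3 removed its highest value and left 1 CPM or more in ALDH-high clones alone, so this call is given as a description. DESeq2 called 2 partners, 1 G protein gene and 2 other synaptic adhesion genes, where limma called 0, 0 and 1. Both synaptic adhesion counts include PTPRD, which passed the filter through the ALDH-low clones alone, so its call is a description. DESeq2 also called 7.92% of all genes, against 1.34% with limma. The G protein count ranged from 0 to 1 when clones were left out. No other scaling shifted the median of all genes by more than 0.02 on the log2 scale. No paired analysis was possible because no label pairs an ALDH-high clone with an ALDH-low clone. The floor of 3 reads limits what can be said of the absent genes.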

Other observations

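SLITRK2, a synaptic adhesion gene below the filter and named after its values were seen, was at 8.74, 0.82 and 0.56 CPM in H1, H6 and H10, against 0 CPM in each of L1, L3 and L8, and 9.11 CPM in wild type. NEFL, a neurofilament gene also below the filter, was at 8.90, 8.91 and 0.04 CPM in ALDH-high clones, against 0, 0.20 and 0 CPM in L1, L3 and L8, with 1.88 CPM in wild type. Neither was tested.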
